A study of Mus musculus with 15 samples.

Results

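Tumors grown from GL261 cells were compared with tumors grown from 005 cells, 3 end-stage tumors against 3, by RNA sequencing of whole tumor tissue. These 6 samples, chosen by the tumor type in their labels, were part of a series of 15 that also held CT2A tumors, Mut3 tumors and naïve brain, 3 samples each. Of 46679 genes in the count file, 17481 had enough counts to be tested across the series. The comparison asks in which genes a pair of glioma models, used side by side in the same mouse strain, differ once each has formed a tumor in the brain.

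All hosts were C57BL/6 mice aged 6 to 8 weeks at implantation, and 100000 cells of either line were placed in the right hemisphere. Both lines carried a GFP and firefly luciferase reporter. GL261 cells were grown in serum-containing DMEM and sorted for GFP, whereas 005 cells were grown in serum-free neural medium with EGF and FGF-2 and were selected with puromycin. GL261 came from a tumor induced with methylcholanthrene and has mutations that include p53, and 005 came from a mouse with activated H-ras and AKT on a p53+/- background. Mice were perfused with PBS at the humane endpoint and tumor tissue was taken without sorting of cells. Each tumor came from a different mouse, each group rests on 1 implanted line, and culture medium and selection differed between the lines, so that the effects of line, culture and selection cannot be told apart. The sex of the hosts and any batch were not given in the labels.

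As background, a glioma mass is a mixture of tumor cells with microglia, macrophages that came from blood, lymphocytes, vessels and trapped brain tissue. Interferons made by such cells switch on genes of antiviral defence and of antigen presentation, in tumor cells and in leukocytes alike. Activated RAS proteins signal through ERK, which in turn switches on its own brakes, the Dusp phosphatases and the Sprouty proteins, and also growth factor ligands of the EGF family. The activity of these proteins was not measured in either line. Because whole tissue was sequenced, fewer cells of a type and less RNA per cell cannot be told apart in any result given here.

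The GL261 libraries held 5380395 to 7244155 counts and the 005 libraries 8523676 to 13130158. At these depths, 3 counts corresponded to 0.214 to 0.622 CPM (counts scaled to a fixed library size, with TMM factors). One library stood apart from its group. The root mean square log2 difference over tested genes was 0.98 between 005 replicates 1 and 2, but 1.43 and 1.63 between each of these and 005 replicate 3, which was nearer to every naïve brain sample (1.07 to 1.13) than to either of its own group. Within GL261 this distance ran from 0.88 to 1.05, and between the groups from 1.20 to 1.58. Mitochondrially encoded genes took 17.8% of the counts of 005 replicate 3, against 4.60% and 6.42% in the other 005 tumors and 4.33% to 11.3% in GL261. Summed CPM of myelinating oligodendrocyte genes was 718, 499 and 5185 in 005 replicates 1 to 3 and 1655, 1986 and 1236 in GL261 replicates 1 to 3, and that of mitosis genes was 3196, 3829 and 363 in 005 and 2591, 2370.2 and 2409 in GL261. Calls and the main counts are therefore given with and without 005 replicate 3, and values per tumor are always listed in the order of replicates 1, 2 and 3.

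A gene was called when edgeR's quasi-likelihood test, fitted over all 15 samples, gave a Benjamini-Hochberg adjusted p under 0.05 and the log2 fold change was at least 1 in size. By that rule 458 genes (2.62% of those tested) differed between the lines, 303 higher in GL261 (1.73%) and 155 higher in 005 (0.887%). Protein-coding genes made up 370 of the 458. The values of the 3 GL261 tumors and the 3 005 tumors did not overlap in 450 of the called genes, against 18.2% of all tested genes (8.86% with GL261 higher and 9.35% with 005 higher). The median log2 fold change over all tested genes, as GL261 minus 005, was -0.15 and serves below as the level against which gene lists are read. Positive fold changes mean higher in GL261 throughout.

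Leaving out 005 replicate 3 raised the number of calls to 1073 of 18300 genes tested (5.86%), 517 higher in GL261 (2.83%) and 556 higher in 005 (3.04%). Of the 458 genes, 428 were called in both fits, 277 higher in GL261 and 151 higher in 005, while 30 were called only with all samples and none changed direction. Of the genes called only without that library, 627 had been tested in both fits. In 130 of the 155 genes higher in 005, replicate 3 had the lowest value of the 3 tumors. Over all 155 genes its median was 0.443 times the mean of the other two. The median over all tested genes moved to 0.03 without it. Of 811 distinct genes tested in 54 lists of pathways and cell markers, 42 were called with all samples, 23 higher in GL261 and 19 higher in 005, and 94 without 005 replicate 3, 34 and 60. In 28 of the lists, with 365 tested members, edgeR called none with all samples, whereas DESeq2 called 14, limma 4 and edgeR without 005 replicate 3 16. Of these members, 53 had an unadjusted p under 0.05 by edgeR, a share similar to that of all tested genes (2553 of 17481). Leaving out any other single library lowered the number of calls, to between 192 and 336.

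**Figure D1:**
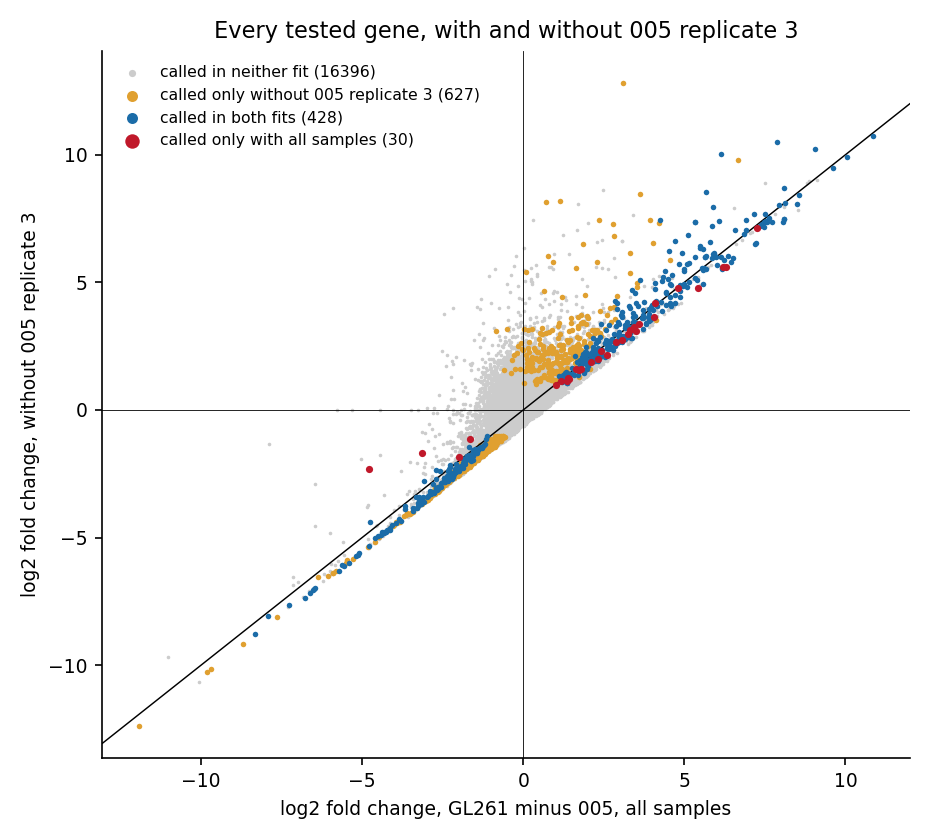
Log2 fold change of each gene tested in both fits (GL261 minus 005) with all samples (horizontal axis) and without 005 replicate 3 (vertical axis), coloured by the fit in which the gene was called. The 428 genes called in both fits keep their side of zero, and 627 genes are called only when 005 replicate 3 is left out.

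The genes that set GL261 apart most widely were close to silent in 005 tumors. Coro2a, which encodes a coronin that binds actin, stood at 1579, 1257 and 1637 CPM in GL261 and 3.19, 7.48 and 5.2 CPM in 005. Every GL261 tumor was far above every 005 tumor (log2 fold change 8.14 ± 0.66 (SE), adjusted p = 1.1e-05, edgeR). H19, an imprinted long non-coding RNA of fetal tissue, reached 990.1, 655 and 1267 CPM in GL261 and 4.22, 5.19 and 6.41 CPM in 005, again with no overlap (log2 fold change 7.52 ± 0.63 (SE), adjusted p = 1.41e-05, edgeR). Car6, a secreted carbonic anhydrase, was at 347, 209 and 203 CPM against 1.44, 0.362 and 0.285 CPM (log2 fold change 8.50 ± 0.72 (SE), adjusted p = 1.41e-05, edgeR).

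Several genes of this set are known from tissues other than brain. Cytl1, a secreted protein first known from cartilage and blood progenitors, was at 384, 305 and 264 CPM in GL261 and 1.85, 1.21 and 3.42 CPM in 005 (log2 fold change 7.16 ± 1.05 (SE)). Tnnt3, the troponin T of fast skeletal muscle, was at 119, 102 and 75.3 CPM against 0.721, 0.362 and 1.21 CPM (log2 fold change 6.93 ± 0.66 (SE)), and Alx1, a homeobox factor of craniofacial development, at 55.8, 33.9 and 38.3 CPM against 0.412, 0.121 and 0.142 CPM (log2 fold change 7.49 ± 0.65 (SE)). None of these overlapped between the lines, and their edgeR adjusted p-values were 0.00164, 3.27e-05 and 1.72e-05.

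Gtsf1, which acts in the piRNA pathway of germ cells, was at 154, 88.6 and 82 CPM in GL261 and 0, 0.121 and 1.07 CPM in 005 (log2 fold change 7.86 ± 0.76 (SE)). Dppa4, a chromatin protein of pluripotent cells, stood at 40.00, 23.1 and 31.2 CPM in GL261, where 005 tumors had 0.309, 0.121 and 0.285 CPM (log2 fold change 6.91 ± 0.69 (SE)). Impg1, a proteoglycan of the retina, was at 58, 25.4 and 14.8 CPM against 0.206, 0.241 and 0.498 CPM (log2 fold change 6.56 ± 0.86 (SE)). No 005 value of these 3 genes was above that of Gtsf1 in replicate 3. Their edgeR adjusted p-values were 4.13e-05, 5.04e-05 and 0.000718.

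Pet2, an X-linked gene known from plasmacytomas, was at 85.8, 76.4 and 100.2 CPM in GL261 and 0.103, 0 and 0.285 CPM in 005 (log2 fold change 9.05 ± 0.73 (SE), adjusted p = 1.1e-05, edgeR). Psg29, a member of the pregnancy-specific glycoprotein family, was at 91.4, 87.1 and 86.5 CPM against 0.618, 0.845 and 0.783 CPM (log2 fold change 6.85 ± 0.50 (SE)), and Rhox2h, a homeobox gene of the X-linked Rhox cluster, at 70.9, 43.8 and 46.8 CPM against 0.206, 0 and 0.285 CPM (log2 fold change 8.10 ± 0.90 (SE)). Both lie in families of near-identical copies, so that the share of reads assigned to each copy is uncertain. All 12 genes described so far were called in each of the 6 fits that left out 1 library, with Cytl1 giving the highest adjusted p of any (0.0167).

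A further group had no 005 tumor above 3 counts. Ott, a multicopy X-linked gene named for expression in ovary and testis, was at 75.4, 8.73 and 7.16 CPM in GL261 and at 0 counts in all 005 tumors. Set against 3 counts over the whole 005 group it was at least 265-fold higher in GL261, and its call was lost without GL261 replicate 1 (adjusted p = 0.0973), without 005 replicate 1 (0.0861) and without 005 replicate 2 (0.054). GL261 replicate 1 held 364 of the 477 Ott counts in GL261, so the limit of 265-fold rests mostly on that library. For 4 other genes the 005 group held 1 to 3 counts in all, and the ratio of group totals, each scaled by its library sizes, is given with its exact counting interval, which covers counting error only. Rfx6, a transcription factor of pancreatic islets, was at 15.8, 17.8 and 18 CPM in GL261 with a ratio of 185 (95% counting interval 62.8 to 903). For Rhox2g the ratio was 293 (95% counting interval 80.5 to 2428), for Ces1a, a carboxylesterase with close paralogs, 399 (95% counting interval 71 to 15839), and for Akr1b7, an aldo-keto reductase, 91.5 (95% counting interval 30.8 to 448). The last lost its call without GL261 replicate 3 (adjusted p = 0.0544). H2-T3, a nonclassical MHC class I gene among close paralogs, was spread widely within GL261, at 129.7, 36.4 and 9.34 CPM, and was at 0.309, 0.362 and 0 CPM in 005 (log2 fold change 8.08 ± 1.09 (SE), adjusted p = 0.000882, edgeR).

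**Figure D2:**
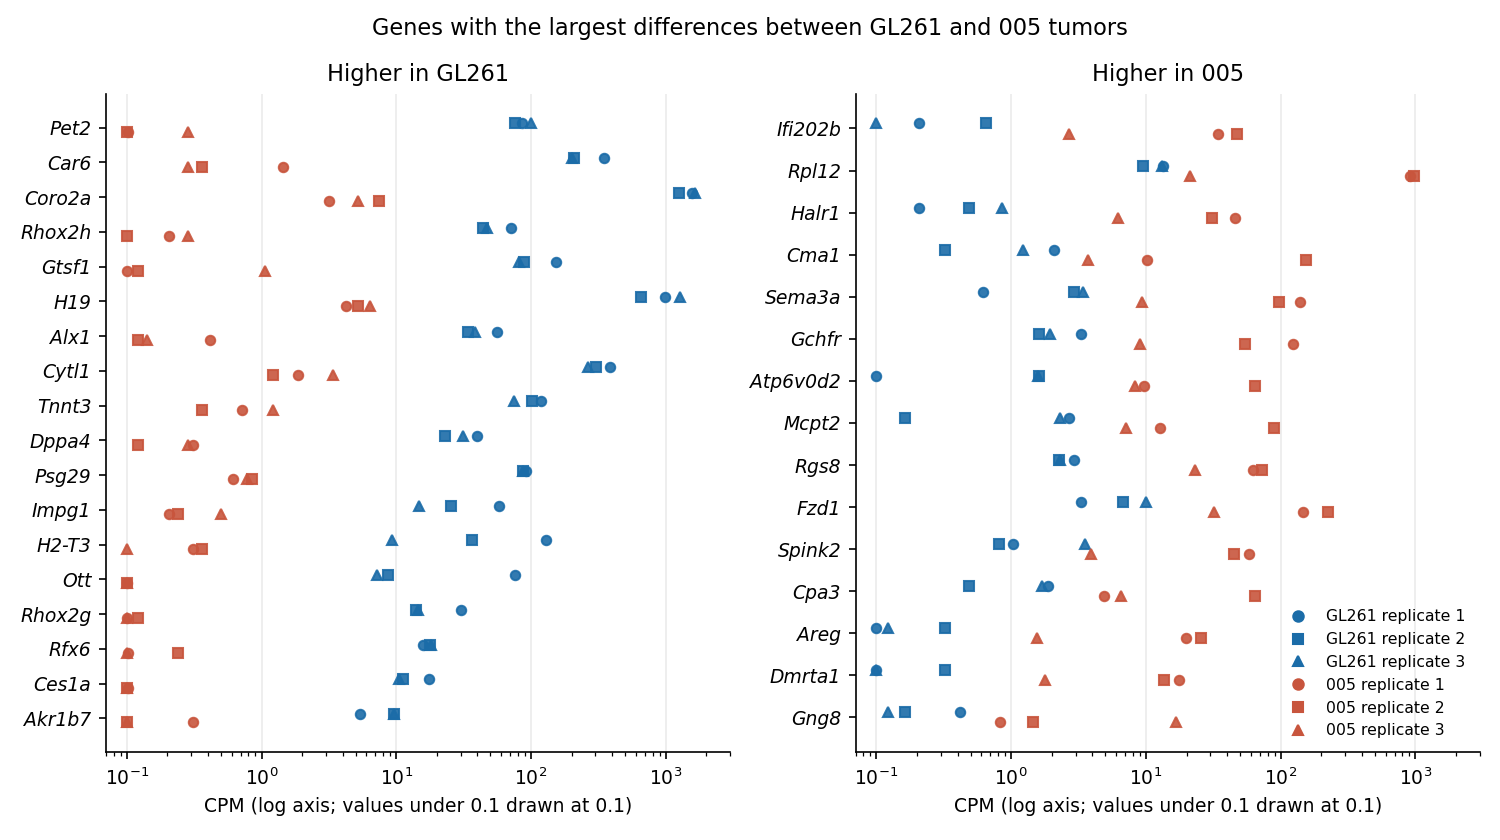
CPM on a log axis for the genes with the widest differences, those higher in GL261 on the left and those higher in 005 on the right; each point is 1 tumor and the marker shape gives the replicate. GL261 and 005 points are separate for every gene shown, and 005 replicate 3 (triangles) lies closest to GL261 for most genes of the right panel.

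Collagens differed in both directions. Of 23 collagen genes tested, 4 were called higher in GL261 and 1 higher in 005, with a list median of -0.46. Col2a1, the main fibrillar collagen of cartilage, stood at 200.4, 189 and 377 CPM in GL261 and 3.61, 3.5 and 5.48 CPM in 005, far apart in every tumor (log2 fold change 5.91 ± 0.43 (SE), adjusted p = 5.84e-06, edgeR). Col9a1 and Col11a1, whose products form mixed fibrils with type II collagen, had 54.5, 60.3 and 61.4 CPM and 148, 199.6 and 195 CPM in GL261. In 005 they had 1.13, 2.17 and 4.34 CPM and 6.39, 10.4 and 6.55 CPM, and the log2 fold changes were 4.49 ± 0.43 and 4.54 ± 0.55 (SE).

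Further chains of the same fibrils, and a gene known from cartilage, were looked up after the values were seen. Col9a2 was at 40.2, 28.6 and 49.3 CPM in GL261 and 1.55, 0.362 and 2.71 CPM in 005 (log2 fold change 4.62 ± 0.55 (SE)), and Col11a2 at 10.6, 10.3 and 19.9 CPM against 1.24, 1.21 and 1.21 CPM (log2 fold change 3.47 ± 0.47 (SE)). Cnmd, chondromodulin, an inhibitor of vessel growth made by cartilage, was at 464, 431 and 420.5 CPM against 4.94, 8.57 and 12.7 CPM (log2 fold change 5.64 ± 0.55 (SE)). These 3 genes were called with and without each single library, whereas Col9a3 (2.24 ± 0.57, SE) missed the call with all samples (adjusted p = 0.0514) and passed it without 005 replicate 3 (3.01, adjusted p = 0.00803, edgeR). For comparison, the fibril genes were not particular to GL261, since Mut3 tumors held 121 ± 45.8 CPM of Col2a1, 324 ± 76.3 CPM of Col9a1 and 341 ± 274 CPM of Col11a1 (mean ± SD, n = 3).

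Col3a1, a fibrillar collagen of connective tissue and a member of the fibroblast list too, was higher in GL261 (152, 176 and 169 CPM against 13.7, 36.5 and 30.5 CPM, log2 fold change 2.62 ± 0.65 (SE), adjusted p = 0.0452, edgeR). That call was lost without any single library except 005 replicate 3, with adjusted p up to 0.178. Col6a2, of the microfibrillar type VI, was the member higher in 005, at 6.18, 4.95 and 4.91 CPM against 1.45, 0.485 and 1.21 CPM (log2 fold change -2.34 ± 0.49 (SE)). It was lost without any 1 of the GL261 libraries or without 005 replicate 1 (adjusted p up to 0.0883). Col4a1 and Col4a2, the chains of vessel basement membrane, had log2 fold changes of -1.80 and -2.07 and were not called with all samples (adjusted p = 0.101 and 0.0531). Without 005 replicate 3 they were -2.24 and -2.50 (adjusted p = 0.0076 and 0.00291, edgeR), and the list then held 5 genes higher in GL261 and 6 higher in 005.

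Fewer of the other matrix genes were called. Sparc, a matricellular protein that binds collagen, was the 1 called gene of 31 mesenchymal genes tested (list median -0.34), at 685, 501 and 511 CPM in GL261 and 214, 187 and 275 CPM in 005 (log2 fold change 1.33 ± 0.33 (SE), adjusted p = 0.0434, edgeR). Of 20 metallopeptidases and inhibitors, Adamts1, a secreted protease that cuts proteoglycans, was higher in GL261 (log2 fold change 1.98 ± 0.45 (SE)). Adam8, a membrane protease of leukocytes, and Timp2, an inhibitor of metallopeptidases, were higher in 005 (-2.77 ± 0.69 and -1.30 ± 0.31, SE). All 4 of these genes kept their calls without 005 replicate 3 and lost them without any other single library, with adjusted p up to 0.153, 0.108, 0.189 and 0.163. The mesenchymal list also held 5 genes higher in 005 when that library was left out, such as Cd44, a hyaluronan receptor (-1.49, adjusted p = 0.0184), and Thbs1, thrombospondin 1 (-2.26, adjusted p = 0.0124, edgeR). The metallopeptidase list then held 2 genes higher in GL261 and 4 higher in 005.

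Imprinted growth genes were next. Of 15 tested, 2 were called higher in GL261 and 1 higher in 005 (list median -0.38), and without 005 replicate 3 there were 3 and 2 (list median 1.56). Besides H19, Plagl1, a zinc finger factor that controls a set of imprinted genes, was at 103, 133 and 208 CPM in GL261 and 3.5, 2.05 and 7.41 CPM in 005 (log2 fold change 5.07 ± 0.67 (SE), adjusted p = 0.000722, edgeR). It was called without any 1 library. Igf2r, which clears IGF2 from the cell surface, was higher in 005, at 74.5, 58.1 and 11.4 CPM against 7.25, 5.5 and 8.13 CPM (log2 fold change -2.78 ± 0.69 (SE), adjusted p = 0.0454, edgeR). Among fits that left out 1 library, that call held only without 005 replicate 3 (-3.26, adjusted p = 0.00451), and the adjusted p was up to 0.183 without another library. Igf2, the growth factor gene next to H19, was at 9.95, 12.4 and 22.3 CPM in GL261 and 3.3, 2.9 and 20.8 CPM in 005, where replicate 3 lay near the highest GL261 tumor. Its log2 fold change was 0.72 with all samples (adjusted p = 0.724) and 2.26 without 005 replicate 3 (adjusted p = 0.0418, edgeR).

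Some called genes were neighbours on the chromosome. Runs of at least 3 called genes of 1 direction within 1 Mb of each other were listed after the data had been seen, by GENCODE positions on GRCm38. H19 (chr7:142575529-142578143) and Tnnt3 (chr7:142498836-142516009) fell in a run on chr7:141475240-143503150, where 5 of 30 tested genes were higher in GL261. Phlda2, an imprinted gene of placental growth at the end of that run, had a ratio of group totals of 81.5 (95% counting interval 14 to 3285). Its call was lost without GL261 replicate 1, 005 replicate 1 or 005 replicate 2 (adjusted p up to 0.0882). On chrX:147765991-149826694, 6 of 8 tested genes were higher in GL261, Ott among them. Most of the others are known only by Gm numbers and resemble one another, so the assignment of reads among them is uncertain. Over the whole X chromosome, 31 of 622 tested genes were higher in GL261 (4.98%, against 1.73% of all tested genes). Without 005 replicate 3 this was 42 of 657 (6.39%, against 2.83%), and the runs on chromosomes 7 and X then held 6 of 30 and 7 of 9 genes higher in GL261.

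The run with the most called genes lay on chr1:84963669-85645037, where 11 of 14 tested genes were higher in GL261 (9 of 16 without 005 replicate 3). Most of them are known only by clone names and resemble Sp140 or one another, so the assignment of reads among them is uncertain. Sp140 itself, a nuclear body protein of leukocytes, was at 168, 76.8 and 90.3 CPM in GL261 and 10.3, 39.5 and 6.05 CPM in 005 (log2 fold change 2.59 ± 0.63 (SE), adjusted p = 0.0399, edgeR). It was lost without any 1 GL261 library or without 005 replicate 1 (adjusted p up to 0.165). Elsewhere on chromosome 1, at chr1:173468485-173698395, 3 of 5 tested genes were higher in GL261, all of the interferon-inducible p200 family. Ifi202b, a member of the same family at chr1:173962568-173982744, was higher in 005, at 34.1, 47.4 and 2.71 CPM against 0.207, 0.647 and 0 CPM (log2 fold change -6.62 ± 1.21 (SE), adjusted p = 0.00817, edgeR), and was lost without GL261 replicate 1 (0.0591). The members of this family are similar in sequence, so these assignments are uncertain.

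Transcription factors that mark position along the body axis differed in both directions. Of 12 Hox genes tested, Hoxc10 was higher in GL261, at 6.63, 0.647 and 1.82 CPM against 0, 0 and 0.142 CPM, a ratio of group totals of 42.4 (95% counting interval 11.2 to 359.8). Hoxa7 was higher in 005, at 45.1, 24.7 and 2.78 CPM against 2.28, 1.62 and 0.364 CPM (log2 fold change -4.14 ± 0.92 (SE), adjusted p = 0.0269, edgeR). The long non-coding RNA Halr1 (chr6:52102949-52113684), which lies beside the Hoxa cluster that holds Hoxa7 (chr6:52214491-52221854), was higher in 005 too, at 46, 31 and 6.19 CPM against 0.207, 0.485 and 0.849 CPM. Its log2 fold change was -5.61 ± 0.96 (SE, adjusted p = 0.005, edgeR) and it was called without any 1 library. Hoxc10 and Hoxa7 kept their calls in 2 of 6 such fits (adjusted p up to 0.117 and 0.119), 1 of them the fit without 005 replicate 3, in which Hoxa5 was called higher in 005 as well (-1.86, adjusted p = 0.0381). Of 28 brain patterning factors, Nr2f2, an orphan nuclear receptor, was higher in 005 (67.3, 61.8 and 52.5 CPM against 10.6, 21.8 and 18.2 CPM, log2 fold change -1.84 ± 0.45 (SE)), and that call was lost without any library except 005 replicate 3 (adjusted p up to 0.226).

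The count of glial lineage genes called depended on 005 replicate 3 and on the tool. Of 29 glial progenitor and stem cell genes, edgeR called Sox10, the transcription factor of oligodendrocyte and neural crest cells, with all samples, where DESeq2 called 4 genes higher in GL261 and 1 higher in 005. Sox10 was at 59.3, 39.6 and 60.5 CPM in GL261 and 2.68, 3.14 and 15.1 CPM in 005, the highest 005 value being that of replicate 3 (log2 fold change 2.91 ± 0.61 (SE), adjusted p = 0.0189, edgeR). Without that library the log2 fold change was 4.17 (adjusted p = 0.000302), and without GL261 replicate 1 or 3 or 005 replicate 1 or 2 the call was lost (adjusted p up to 0.0766). Olig1, Fabp7 and Gpr17, known from oligodendrocyte progenitors and radial glia, were called higher in GL261 by edgeR without 005 replicate 3, at 2.55, 2.15 and 2.27 (adjusted p = 0.037, 0.0276 and 0.0267). With all samples they were 1.71, 1.67 and 1.64 (adjusted p = 0.21, 0.107 and 0.129, edgeR). Vcan, the proteoglycan versican, went the other way in that fit (-2.68, adjusted p = 0.0125), from -2.22 with all samples (adjusted p = 0.0986). The list then held 5 genes higher in GL261 and 1 higher in 005, and its median was -0.15 with all samples and 0.50 without 005 replicate 3. Lists of normal brain cells moved further in the same fit, with medians from -0.31 to 1.37 for neuron, from -0.36 to 1.09 for myelinating oligodendrocyte and from 0.14 to 1.26 for astrocyte genes, and their part in the glial result was not tested.

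Among 23 receptor tyrosine kinases, Erbb3, the neuregulin receptor, was called and was higher in GL261. Its values were 87.7, 44.4 and 111 CPM in GL261 and 8.86, 2.66 and 11 CPM in 005, with no overlap (log2 fold change 3.42 ± 0.58 (SE), adjusted p = 0.0046, edgeR), and it was called without any 1 library. The 16 tested genes of the Notch pathway held no call by edgeR, DESeq2 or limma, with 2 at an unadjusted p under 0.05. Neuron, oligodendrocyte and astrocyte genes, 40 in all, held no call by edgeR with all samples, with 3 at an unadjusted p under 0.05, 1 call by DESeq2 and 0 by limma. Without 005 replicate 3, 2 of them were called higher in GL261. Neuron genes summed to 1159, 2476 and 1351 CPM in GL261 and 845, 299 and 4901 CPM in 005, where replicate 3 held more and replicates 1 and 2 less than any GL261 tumor.

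The called genes of the type I interferon list were all of the Ifit family. Of 36 type I interferon-stimulated genes tested, 3 were called higher in GL261 and none higher in 005, with a list median of 1.25 (0.90 without 005 replicate 3 and 2.18 without 005 replicate 2) against -0.15 over all genes. DESeq2 called 10 of them. Ifit3, an antiviral protein induced by interferon, was at 647, 343 and 339 CPM in GL261 and 34.3, 83.1 and 43.6 CPM in 005, the lowest GL261 tumor lying well above the highest 005 tumor. The log2 fold change was 3.05 ± 0.51 (SE, adjusted p = 0.00422, edgeR) and 2.90 without 005 replicate 3 (adjusted p = 0.00965). Its copy Ifit3b was at 124, 77.3 and 68.2 CPM against 7.31, 15.8 and 12.2 CPM (log2 fold change 2.93 ± 0.49 (SE), adjusted p = 0.00422, edgeR). Because the copies are similar, the split of reads between them is uncertain.

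Ifit1, of the same family, was at 174, 106 and 105 CPM in GL261 and 19.98, 48 and 14.1 CPM in 005 (log2 fold change 2.23 ± 0.50 (SE), adjusted p = 0.0273, edgeR). It was called without 005 replicate 3 (1.91, adjusted p = 0.0402) and lost without GL261 replicate 1, 2 or 3 or 005 replicate 1 (adjusted p up to 0.129). The genes lie together at chr19:34583531-34650009, where all 3 of the called genes among 5 tested were Ifit genes. Bst2, tetherin, which holds budding virus at the cell surface and is the 1 called member of the dendritic cell list (16 tested), was at 292, 141 and 196 CPM in GL261 and 13.3, 51.5 and 16.8 CPM in 005. It did not overlap between the lines (log2 fold change 2.95 ± 0.48 (SE), adjusted p = 0.00363, edgeR). The dendritic cell list lay the other way, with 11 of 16 members below zero and a median of -0.56 (-0.25 without 005 replicate 2). Ifit3, Ifit3b and Bst2 were called without any 1 library.

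The promoters of these 4 genes are shown because they are the called genes of the interferon-stimulated list together with Bst2, and the capitals mark a sequence pattern of that response. The 250 bases before the RefSeq start of each gene (GRCm38.p6) are printed in the direction of transcription, 5′ to 3′, with the pattern GAAA, any 2 bases and GAAA, or its reverse complement TTTC, any 2 bases and TTTC, in capitals, the core of the interferon-stimulated response element. The windows are chr19:34583279-34583528 on the plus strand for Ifit3, chr19:34607707-34607956 on the plus strand for Ifit3b, chr19:34640639-34640888 on the plus strand for Ifit1 and chr8:71537473-71537722 on the minus strand for Bst2.
Ifit3: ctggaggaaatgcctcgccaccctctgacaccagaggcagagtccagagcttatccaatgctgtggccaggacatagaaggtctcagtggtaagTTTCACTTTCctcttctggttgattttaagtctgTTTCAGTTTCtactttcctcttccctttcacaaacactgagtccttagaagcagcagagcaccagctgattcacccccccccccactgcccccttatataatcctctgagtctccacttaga
Ifit3b: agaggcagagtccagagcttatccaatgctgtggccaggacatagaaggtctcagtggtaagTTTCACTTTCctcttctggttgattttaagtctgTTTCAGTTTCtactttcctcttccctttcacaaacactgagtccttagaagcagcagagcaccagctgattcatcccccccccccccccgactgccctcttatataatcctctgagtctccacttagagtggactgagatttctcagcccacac
Ifit1: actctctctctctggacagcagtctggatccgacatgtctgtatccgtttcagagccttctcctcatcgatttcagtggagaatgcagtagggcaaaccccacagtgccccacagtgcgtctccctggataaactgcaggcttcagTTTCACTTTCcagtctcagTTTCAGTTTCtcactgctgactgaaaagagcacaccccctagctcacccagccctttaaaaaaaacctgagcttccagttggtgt
Bst2: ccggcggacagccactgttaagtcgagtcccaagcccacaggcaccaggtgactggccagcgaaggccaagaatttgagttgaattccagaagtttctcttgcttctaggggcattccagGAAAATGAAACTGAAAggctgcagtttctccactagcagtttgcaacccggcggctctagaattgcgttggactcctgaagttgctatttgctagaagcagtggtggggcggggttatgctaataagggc

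Each window held 2 matches, searched on both strands with overlaps allowed, and the pair of Bst2 overlapped. The matches began 156 and 122 bases before the start in Ifit3, 188 and 154 in Ifit3b, 104 and 85 in Ifit1, and 130 and 124 in Bst2. Ifit3 and Ifit3b shared 188 of 218 bases when shifted by 32 (86.2%), so they are not independent examples. The letters occurred in 978 of 32851 promoter windows (2.98%) and in 936 of 27025 genes with a window (3.46%). Among type I interferon-stimulated genes, 12 of 26 with a window held them. Among called genes with a window, 18 of 197 higher in GL261 (9.14%) and 3 of 112 higher in 005 (2.68%) did, and without 005 replicate 3 these were 23 of 345 (6.67%) and 9 of 422 (2.13%). A match describes these letters and is not a measured binding site.

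Other interferon genes lay in the same direction without passing the threshold. Isg15, a ubiquitin-like modifier, was at 14.5, 9.86 and 14.2 CPM in GL261 and 1.65, 6.28 and 1.14 CPM in 005 (log2 fold change 2.10 ± 0.63 (SE), adjusted p = 0.105, edgeR). Its groups did not overlap. Irf7, the transcription factor that amplifies the response, had a log2 fold change of 1.57 ± 0.62 (adjusted p = 0.237). None of 18 interferon-gamma induced GTPases was called by edgeR, although their list median was 1.23 (0.74 without 005 replicate 3 and 2.57 without 005 replicate 2), and DESeq2 called 1 and limma 3. By edgeR 6 of the 18 had an unadjusted p under 0.05. Irgm1 and Igtp, GTPases that act on vacuoles of intracellular pathogens, were at 1783, 860.5 and 1079 CPM and 1933, 869 and 1077 CPM in GL261 against 251, 620.0 and 127 CPM and 194, 751 and 103 CPM in 005. In both, 005 replicate 2 was the highest of its group, and without it Irgm1, Igtp and Isg15 passed the threshold (log2 fold change 2.71, 3.12 and 3.20, adjusted p = 0.015, 0.0364 and 0.0146).

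Antigen presentation genes did not separate the lines by this test. None of 33 genes of MHC class I and class II presentation was called by edgeR, with 4 at an unadjusted p under 0.05, 1 call by DESeq2 and 0 by limma. The list medians were 0.52 for class I and 0.61 for class II, and 0.11 and 0.31 without 005 replicate 3 but 1.13 and 1.49 without 005 replicate 2. H2-Aa, a class II chain, was at 4285, 1308 and 2219 CPM in GL261 and 701, 3816 and 759 CPM in 005, so that 005 replicate 2 lay among the GL261 tumors (log2 fold change 0.57 ± 0.72 (SE), 95% confidence interval -0.98 to 2.11, adjusted p = 0.811, edgeR). For B2m, the light chain of class I, the log2 fold change was 0.47 (95% confidence interval -0.68 to 1.63), and for Cd74, the class II chaperone, 0.61 (-0.83 to 2.05). These intervals hold differences of 2-fold or more, so equality of the lines was not shown.

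**Figure D3:**
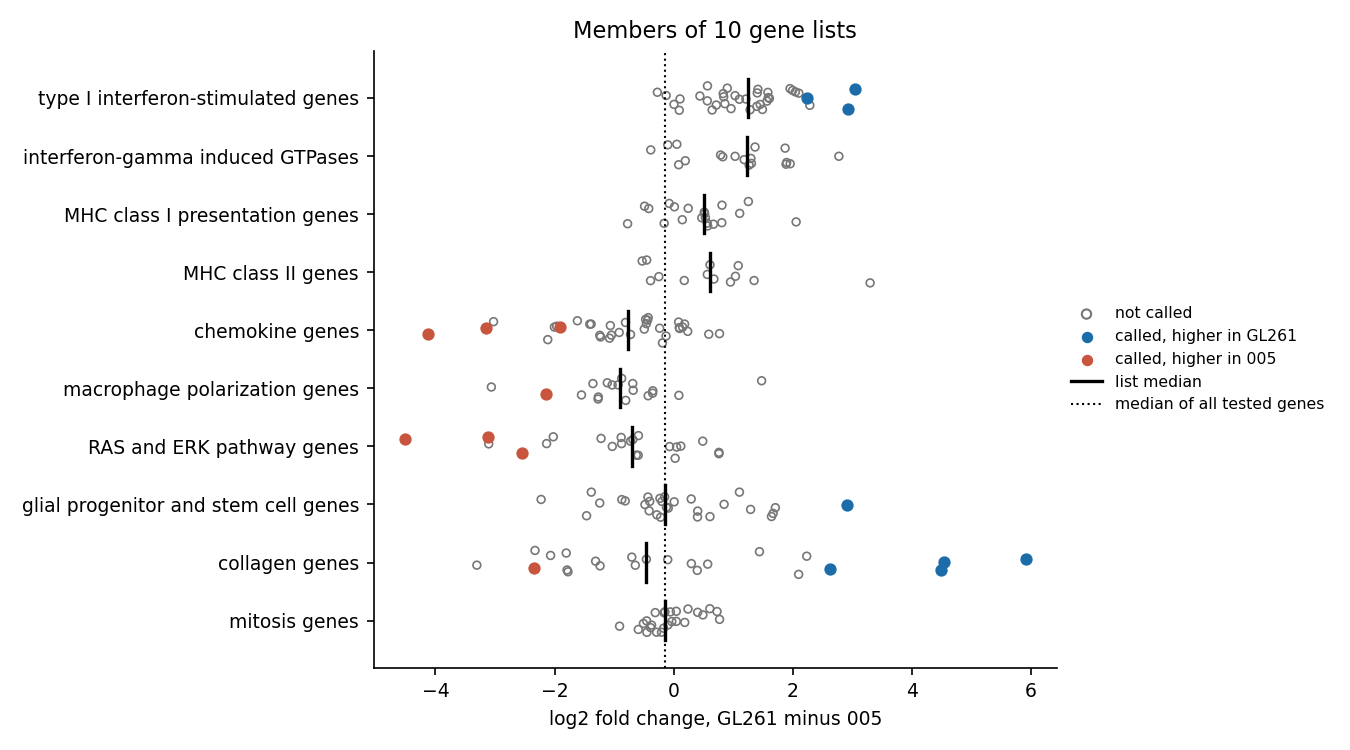
Log2 fold changes (GL261 minus 005) of the tested members of 10 gene lists, with filled points for called genes, black bars for list medians and a dotted line at the median of all tested genes (-0.15). The interferon-stimulated list and the GTPase list have the medians farthest to the right, at 1.25 and 1.23, and the chemokine and macrophage polarization lists those farthest to the left. Without 005 replicate 2 the chemokine and polarization medians were -0.08 and -0.18.

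Genes of the pan-leukocyte list were not called between the lines and were spread widely among 005 tumors. Pan-leukocyte genes summed to 846, 464 and 486 CPM in GL261 and 442, 1843 and 489 CPM in 005, where replicate 2 stood far above both other tumors. The list median was -0.59, with 8 of 8 members below zero, and 0.30 without 005 replicate 2. Of 35 genes of the pan-leukocyte, homeostatic microglia and endothelial lists, none was called by edgeR, with 3 at an unadjusted p under 0.05 and 0 calls by DESeq2 or limma. The pan-leukocyte gene Ptprc, which encodes CD45, was at 85.6, 37.7 and 47.1 CPM in GL261 and 46.2, 261 and 50.1 CPM in 005 (log2 fold change -1.07, 95% confidence interval -2.49 to 0.36, adjusted p = 0.522, edgeR). The intervals for Aif1, Cd68 and Pecam1, which mark macrophages and microglia, phagocytes and endothelium, were -1.06 to 1.03, -1.29 to 0.69 and -0.14 to 0.93.

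Lymphocyte lists had medians toward 005 that also moved with replicate 2. The median was -1.02 for T cell genes (16 of 17 below zero), -1.30 for NK cell genes and -1.01 for B cell genes, against -0.15 over all genes, and -0.05, 0.36 and -0.53 without 005 replicate 2. T cell genes summed to 229.6, 153 and 202 CPM in GL261 and 136, 767 and 277 CPM in 005, NK cell genes to 278, 89.9 and 153 and 32.3, 324 and 73.4 CPM, and B cell genes to 387, 200.4 and 929 and 83.3, 1062 and 1044 CPM. The lines overlapped in each of these sums, and 005 replicate 2 was the highest of all 6 tumors in all 3. None of the 31 tested genes of these lists was called by edgeR, with 3 at an unadjusted p under 0.05 and 0 calls by DESeq2 or limma. The same held for 33 tested genes of the cytotoxic, interferon ligand and receptor, and costimulatory lists, with 3 at an unadjusted p under 0.05 and 0 calls by either other tool.

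**Figure D4:**
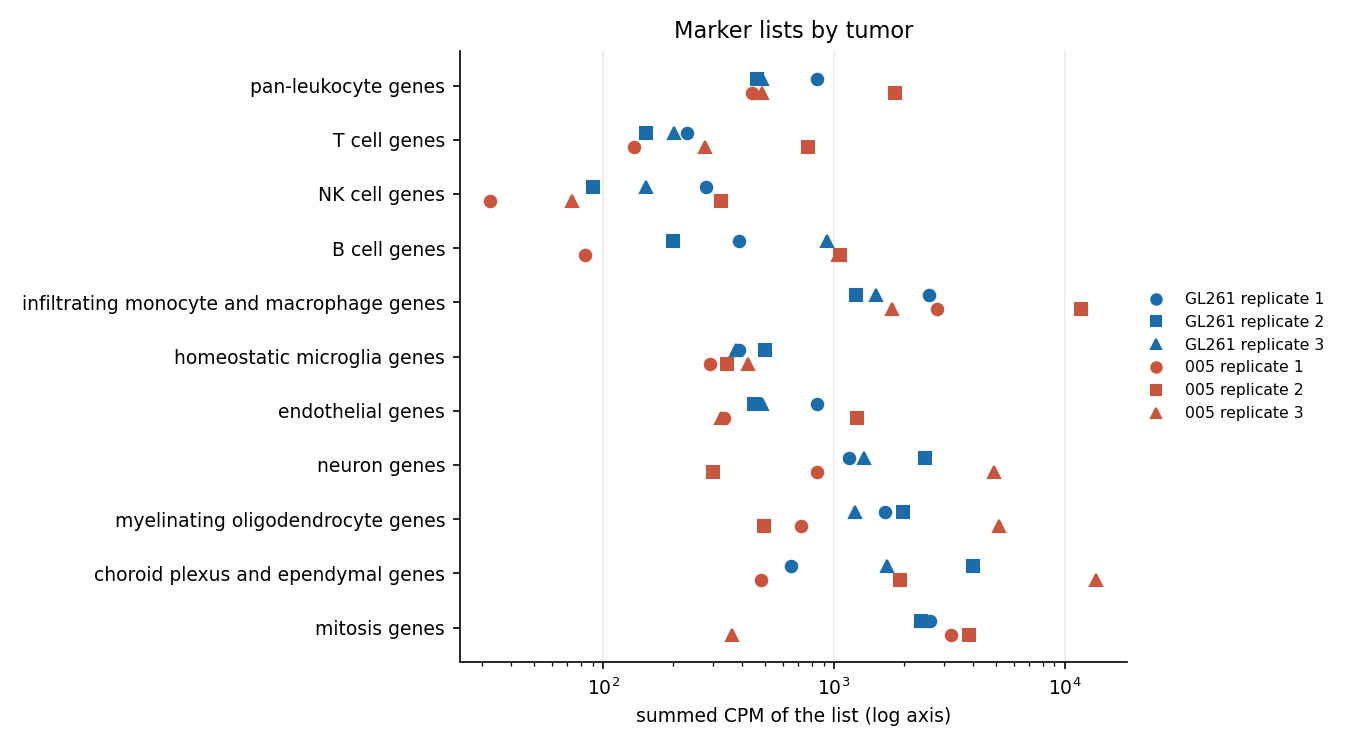
Summed CPM of marker lists on a log axis, 1 point per tumor, with colour for the line and marker shape for the replicate. 005 replicate 2 has the highest sums of leukocyte, T cell and monocyte genes, and 005 replicate 3 the highest sums of neuron, oligodendrocyte and choroid plexus genes and the lowest sum of mitosis genes.

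To read immune gene sets beside leukocyte content, each sum was divided by the pan-leukocyte sum of the same tumor, a step added after the data had been seen. The ratio for the interferon-gamma induced GTPases was 13.7, 11.6 and 14.5 in GL261 and 4.67, 4.57 and 1.79 in 005. For MHC class II genes it was 10.3, 7.4 and 10.1 in GL261 and 5.2, 5.94 and 4.96 in 005, and for type I interferon-stimulated genes 9.81, 10.8 and 10.8 and 9.01, 3.57 and 2.36. In these 3 sets each GL261 tumor was above each 005 tumor. The same was true of 12 of 53 lists in all, the collagen, endothelial and imprinted growth lists among them, with every 005 tumor above every GL261 tumor in 2 lists and overlap in 39. Without 005 replicate 3, GL261 was above in 14 lists and 005 in 4. Of the GTPase, MHC class II and type I interferon sets, the GTPases had the widest margin between the lowest GL261 ratio and the highest 005 ratio. Infiltrating monocyte and macrophage genes lay the other way, at 3.05, 2.67 and 3.11 in GL261 and 6.32, 6.39 and 3.65 in 005. Erythroid genes did too, at 0.333, 0.527 and 0.502 in GL261 and 2.08, 0.702 and 0.804 in 005. The erythroid list had a median of -1.66, with 5 of 5 members below zero. Higher in 005, it held 0 calls by edgeR with all samples, 1 by DESeq2 and 2 by edgeR without 005 replicate 3. Leukocytes are not the only cells that make transcripts of the sets in this paragraph, and which cells made them was not tested.

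Chemokines and macrophage genes that differed were mostly higher in 005. Of 34 chemokine and receptor genes, 3 were called higher in 005 and none higher in GL261, and without 005 replicate 3 5 were. The list median was -0.77, but -0.08 without 005 replicate 2, near the -0.15 of all tested genes in that fit. Ccl8, a ligand that attracts monocytes and T cells, was at 382, 3751 and 299.5 CPM in 005 and 151, 33.8 and 69.8 CPM in GL261. Replicate 2 gave most of that level (log2 fold change -4.12 ± 0.88 (SE), adjusted p = 0.0205, edgeR), and without it the log2 fold change was -2.01 and not called (adjusted p = 0.0753). Ccl6, made by myeloid cells, was at 278, 578 and 88.8 CPM in 005 against 37.3, 46.1 and 23 CPM in GL261 (log2 fold change -3.15 ± 0.62 (SE), adjusted p = 0.0137, edgeR), and Ccl9, of the same family, had -1.90 ± 0.46 (SE, adjusted p = 0.0405). All 3 were called without 005 replicate 3, whereas Ccl8 was lost without GL261 replicate 2 or 3, Ccl6 without GL261 replicate 1 or 3, and Ccl9 without any library except 005 replicate 3 (adjusted p up to 0.102, 0.0846 and 0.148). Cxcl9, a ligand induced by interferon-gamma, was called higher in 005 by edgeR without replicate 3 (-3.57, adjusted p = 0.0384), and there it rested on replicate 2, at 174, 2706 and 100.9 CPM in the 3 tumors.

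Mrc1, the mannose receptor CD206 of resident and tissue-repair macrophages, was the 1 called gene of 18 macrophage polarization genes (list median -0.90, but -0.18 without 005 replicate 2). It was at 38.3, 68.5 and 17.6 CPM in 005 and 12, 4.85 and 11.2 CPM in GL261, with no overlap (log2 fold change -2.15 ± 0.47 (SE), adjusted p = 0.0245, edgeR). S100a4, a calcium-binding protein of monocytes and motile tumor cells, was the 1 called gene of 15 monocyte and macrophage genes (list median -0.72, but 0.43 without 005 replicate 2). Its 005 values, 301, 178 and 32.1 CPM, overlapped those of GL261, 33.8, 39.9 and 36.5 CPM, as replicate 3 lay just below them. Both genes were called without 005 replicate 3 (-2.52 and -2.71, adjusted p = 0.00221 and 0.000266) and lost without any other single library (adjusted p up to 0.106 and 0.221). In that fit the polarization list held 2 genes higher in 005 and the monocyte list 4. Lyz2, lysozyme of myeloid cells, was not called with all samples and was called higher in 005 without replicate 3 (-2.40, adjusted p = 0.0336, edgeR). Its 005 values were 1838, 10059 and 1405 CPM, and without replicate 2 the log2 fold change was -0.51 (adjusted p = 0.701).

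Some single genes known from myeloid cells were higher in GL261, although the medians of their lists lay below zero with all samples. The list medians were -0.15 for lipid-associated macrophage genes, -0.08 for Toll-like receptor genes, -0.19 for complement genes and -1.66 for neutrophil genes, against -0.15 over all genes, and 13 of 20, 8 of 15, 11 of 15 and 6 of 8 members had a log2 fold change below zero. Without 005 replicate 2 the lipid-associated, Toll-like receptor and complement medians were above zero, at 0.07, 0.39 and 0.43. The neutrophil median was -1.77 in that fit and -0.82 without 005 replicate 3. Gpnmb, a transmembrane glycoprotein of lipid-laden macrophages and of pigment cells, was at 307, 259 and 301 CPM in GL261 and 43.6, 57.3 and 18.7 CPM in 005, far apart (log2 fold change 2.86 ± 0.37 (SE), adjusted p = 0.000718, edgeR). It is 1 of 2 called genes of 20 in the lipid-associated macrophage list, the other being Atp6v0d2, a proton pump subunit of osteoclasts, which was higher in 005 (9.68, 64.1 and 8.26 CPM against 0, 1.62 and 1.58 CPM). Atp6v0d2 was lost without 005 replicate 2 (-3.01, adjusted p = 0.17) and without any 1 GL261 library. Spp1, osteopontin, was higher in 005 as well without 005 replicate 3 (-3.20, adjusted p = 0.00033, edgeR). Cd14, the coreceptor for lipopolysaccharide and the called member of 15 Toll-like receptor genes, was at 401, 205 and 189.9 CPM in GL261 against 32.7, 86 and 29.9 CPM (log2 fold change 2.42 ± 0.47 (SE), adjusted p = 0.0118, edgeR). It was lost without GL261 replicate 1 (0.0545) and without 005 replicate 1 (0.0703).

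Lcn2, lipocalin 2, which binds iron-carrying siderophores, was the 1 called member of 8 neutrophil genes, of which 5 lay toward 005 at an unadjusted p under 0.05. DESeq2 called 3 of the 8 higher in 005, and edgeR called Mmp9, a secreted protease, higher in 005 without 005 replicate 3 (-2.63, adjusted p = 0.021). Lcn2 was at 297, 212 and 239 CPM in GL261 and 36.6, 46.1 and 35.5 CPM in 005, with little spread within either line (log2 fold change 2.66 ± 0.31 (SE), adjusted p = 0.000246, edgeR). Of 15 complement genes, 2 that lie close together on chromosome 17 were higher in GL261. C2, a protease of the classical pathway, was at 126, 41.9 and 66.2 CPM against 3.4, 8.33 and 5.98 CPM (log2 fold change 3.72 ± 0.47 (SE)), and C4b, the component it acts with, at 171, 102 and 178 CPM against 27.2, 40.4 and 48.3 CPM (log2 fold change 1.96 ± 0.39 (SE)). Their adjusted p-values were 0.000553 and 0.0135 (edgeR). C4b was lost without GL261 replicate 3 (0.0691) or 005 replicate 1 (0.076), while Gpnmb, Lcn2 and C2 were called without any 1 library. Mcam, CD146, an adhesion molecule of vessels and melanoma cells and the called member of 10 adhesion genes, was at 112, 74.8 and 125 CPM against 10.5, 15.3 and 5.7 CPM and held in the same way (log2 fold change 3.31 ± 0.48 (SE), adjusted p = 0.00135). Itgb7 of that list, an integrin of leukocytes, was higher in 005 without 005 replicate 3 (-2.66, adjusted p = 0.0235, edgeR).

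Nt5e, CD73, the enzyme that makes adenosine outside the cell, was the called member of 18 checkpoint genes and was higher in 005. It was at 17, 37.5 and 6.55 CPM in 005 and 2.69, 2.91 and 2.79 CPM in GL261 (log2 fold change -2.85 ± 0.69 (SE), adjusted p = 0.0391, edgeR). The call held without 005 replicate 3 and was lost without any other library (adjusted p up to 0.187).

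The mutations for which the lines are known cannot be read from gene totals, and the totals of the 3 genes given here were not called. Hras had a log2 fold change of -1.03 (95% confidence interval -2.01 to -0.05), Trp53 0.98 (0.28 to 1.68) and Akt1 -0.30 (-1.21 to 0.61). Their adjusted p-values ran from 0.15 for Trp53 to 0.83 for Akt1 (edgeR). Trp53 was at 47.3, 26 and 34.5 CPM in GL261 and 14.6, 20.2 and 19.7 CPM in 005, and its groups did not overlap.

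Inhibitors that ERK signalling switches on were the called genes of the RAS and ERK pathway. Of 22 tested, 3 were called higher in 005 and none higher in GL261, with a list median of -0.70 (-0.82 without 005 replicate 3). Dusp5, a phosphatase that switches off ERK in the nucleus, was at 20.9, 21.1 and 10.2 CPM in 005 and 1.04, 1.78 and 3.03 CPM in GL261, with no overlap (log2 fold change -3.12 ± 0.67 (SE), adjusted p = 0.0214, edgeR). Spry4, an inhibitor of receptor signalling to ERK, was at 28.2, 31.1 and 5.06 CPM in 005 and 5.39, 3.07 and 2.67 CPM in GL261, where 005 replicate 3 fell within the GL261 range (log2 fold change -2.54 ± 0.59 (SE), adjusted p = 0.0336, edgeR). Dusp4, a further ERK phosphatase, had 3 counts in all over GL261 and a ratio of group totals of 23 (95% counting interval 7.69 to 113).

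Without 005 replicate 3, Dusp5 was at -3.39, Spry4 at -3.03 and Dusp4 also called (adjusted p = 0.0089, 0.00112 and 0.0127, edgeR). In that fit 6 of the 22 genes were higher in 005. Emp1 and Fosl1, which are induced by ERK signalling, joined the 3, at -2.65 and -2.57 (adjusted p = 0.000165 and 0.00602), from -2.13 and -2.02 with all samples (0.0616 and 0.199), as did Ccnd1, cyclin D1 (-1.21, adjusted p = 0.0486, from -0.68 and 0.674). Spry4 was lost without any library except 005 replicate 3, Dusp4 except 005 replicate 3 or GL261 replicate 2, and Dusp5 except 005 replicate 3 or GL261 replicate 3 (adjusted p up to 0.141, 0.161 and 0.121). Areg, amphiregulin, an EGF receptor ligand outside this list, was at 19.8, 25.7 and 1.57 CPM in 005 and 0, 0.323 and 0.121 CPM in GL261, a ratio of group totals of 85.5 (95% counting interval 29.1 to 416). It was lost without GL261 replicate 1 or 3 (adjusted p up to 0.0696).

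Areg lay in a run at chr5:90772435-91402994 where 3 of 7 tested genes were higher in 005. Its neighbours there were named after their values had been seen. Btc, betacellulin, also a ligand of the EGF receptor, was at 22.6, 22.6 and 0.57 CPM in 005 and 0.622, 0.323 and 0.364 CPM in GL261, where only 005 replicates 1 and 2 stood clear (log2 fold change -5.11 ± 1.05 (SE), adjusted p = 0.017, edgeR). Pf4, the chemokine platelet factor 4, was at 39.96, 99.4 and 32.1 CPM against 24, 10.8 and 12.5 CPM (log2 fold change -1.86 ± 0.43 (SE)). Btc was lost without any 1 GL261 library or 005 replicate 1, and Pf4 without GL261 replicate 2 or 3 or 005 replicate 2 (adjusted p up to 0.092 and 0.147).

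Single genes of the other growth pathways were called. Mtor, the kinase of the growth-controlling mTOR complexes, was the called member of 11 PI3K and AKT pathway genes, at 27.1, 19.1 and 17.8 CPM in 005 and 6.84, 6.95 and 9.1 CPM in GL261 (log2 fold change -1.48 ± 0.37 (SE), adjusted p = 0.0481, edgeR). Ptp4a3, a phosphatase, was the called member of 21 p53 pathway genes and was higher in 005 (log2 fold change -1.49 ± 0.30 (SE), adjusted p = 0.0168). Ccnd3, cyclin D3, was the called member of 15 genes of G1 control, at 71.7, 52.7 and 94.4 CPM in GL261 and 11.1, 26.7 and 12.4 CPM in 005 (log2 fold change 2.13 ± 0.41 (SE), adjusted p = 0.0115). All 3 were called without 005 replicate 3. In that fit Ccnd1 and Cdkn2c of the G1 list, which encode cyclin D1 and a CDK inhibitor, were called higher in 005 (-1.21 and -1.34, adjusted p = 0.0486 and 0.0222, edgeR), and the PI3K and AKT list held 2 genes higher in 005. Mtor was lost without any other library, Ptp4a3 without GL261 replicate 1 or 3 or 005 replicate 1, and Ccnd3 without GL261 replicate 3 or 005 replicate 1 (adjusted p up to 0.232, 0.0973 and 0.0687).

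None of 49 mitosis and DNA replication genes was called by edgeR with all samples, with 1 at an unadjusted p under 0.05, 1 call by DESeq2 and 0 by limma. Rrm2, a subunit of ribonucleotide reductase, was called higher in 005 without 005 replicate 3 (-1.33, adjusted p = 0.0375, edgeR), and the list medians moved from -0.15 to -0.66 for mitosis and from 0.04 to -0.36 for DNA replication. Mki67, a marker of cycling cells, was at 34, 37.7 and 54.7 CPM in GL261 and 63.3, 94.3 and 7.9 CPM in 005, with 005 replicates 1 and 2 above and replicate 3 below every GL261 tumor (log2 fold change -0.39, 95% confidence interval -1.63 to 0.86). Of 27 hypoxia and glycolysis genes, Adm, the vessel-relaxing peptide adrenomedullin, was higher in GL261, at 9.74, 4.85 and 6.55 CPM against 0.927, 0.724 and 0.997 CPM (log2 fold change 2.96 ± 0.65 (SE), adjusted p = 0.0246, edgeR). Adm was lost without GL261 replicate 1 or 3 or 005 replicate 1 or 2 (adjusted p up to 0.109). The list without 005 replicate 3 held 2 genes higher in GL261, Adm and Bnip3 (1.89, adjusted p = 0.0333), and 3 higher in 005, namely Vegfa, the vessel growth factor (-1.28, adjusted p = 0.0493), Egln3 (-2.97, adjusted p = 0.0265) and Hif1a (-1.20, adjusted p = 0.0209, edgeR), which encode an oxygen sensor and the hypoxia factor that it controls.

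The genes with the widest differences toward 005 included Sema3a, a secreted axon guidance protein. It was at 139, 97.3 and 9.4 CPM in 005 and 0.622, 2.91 and 3.4 CPM in GL261, so that even 005 replicate 3 lay above every GL261 tumor (log2 fold change -5.09 ± 0.80 (SE), adjusted p = 0.0028, edgeR). Fzd1, a Wnt receptor, was at 147, 225 and 32 CPM against 3.32, 6.79 and 9.95 CPM (log2 fold change -4.31 ± 0.65 (SE), adjusted p = 0.00211), and Gchfr, which regulates the synthesis of tetrahydrobiopterin, at 124, 54.6 and 8.97 CPM against 3.32, 1.62 and 1.94 CPM (log2 fold change -4.78 ± 0.80 (SE), adjusted p = 0.00429). Dmrta1, a transcription factor of the developing cortex, was at 17.7, 13.6 and 1.78 CPM in 005 and held 2 counts over all GL261 tumors, a ratio of 93.1 (95% counting interval 25.6 to 773). These 4 genes were called without any 1 library, with log2 fold changes without 005 replicate 3 of -5.62 for Sema3a, -4.78 for Fzd1 and -5.31 for Gchfr. Those fits still held the other groups of the series. A fit of the 6 compared samples only called 7 genes in all higher in 005, against 155 in the main fit.

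Less stable calls followed. Rgs8, a regulator of G protein signalling, was at 62.1, 72.4 and 22.9 CPM in 005 and 2.9, 2.26 and 2.3 CPM in GL261 (log2 fold change -4.40 ± 0.95 (SE)), and Spink2, a serine protease inhibitor, at 58.5, 45.3 and 3.92 CPM against 1.04, 0.808 and 3.52 CPM (log2 fold change -4.26 ± 0.90 (SE)). Rpl12, a ribosomal protein gene with processed copies elsewhere in the genome, was at 918, 969 and 21.2 CPM in 005 and 13.5, 9.54 and 13.2 CPM in GL261 (log2 fold change -5.72 ± 1.30 (SE)). The level in 005 replicates 1 and 2 was unlike that of all other 4 tumors, and how reads were divided between this gene and its copies is uncertain. Rgs8 and Spink2 were lost without GL261 replicate 1 or 2 or 005 replicate 1, Rgs8 also without GL261 replicate 3, and Rpl12 without any library except 005 replicate 3, with adjusted p up to 0.107, 0.121 and 0.142.

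Cma1, Mcpt2 and Cpa3, which encode granule proteases of mast cells, were highest in a single 005 tumor. No list of mast cell genes was tested. Cma1, a chymase, was at 10.1, 154 and 3.7 CPM in 005 and 2.07, 0.323 and 1.21 CPM in GL261, Mcpt2 at 12.7, 89.8 and 7.05 against 2.69, 0.162 and 2.3 CPM, and Cpa3, a carboxypeptidase, at 4.84, 64.8 and 6.48 against 1.87, 0.485 and 1.7 CPM. No GL261 tumor reached the lowest 005 tumor in any of the 3, and replicate 2 held most of the level in 005. The log2 fold changes were -5.55 ± 1.17, -4.40 ± 0.94 and -4.22 ± 0.94 (SE, adjusted p = 0.0198, 0.0214 and 0.0264, edgeR). Without 005 replicate 2 they were -2.53, -2.51 and -2.06 and not called (adjusted p = 0.107, 0.111 and 0.191), and leaving out any 1 GL261 library also ended the calls. Cma1 and Mcpt2 belong to a family of similar proteases, which makes their separate totals uncertain.

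Gng8 was highest in 005 replicate 3. This G protein subunit was at 0.824, 1.45 and 16.6 CPM in 005 and 0.415, 0.162 and 0.121 CPM in GL261 (log2 fold change -4.78 ± 1.12 (SE), adjusted p = 0.0335, edgeR), and without replicate 3 it was -2.31 and not called (0.0968). The call was also lost without any 1 GL261 library (adjusted p up to 0.148). The choroid plexus and ependymal list, whose sum was 484, 1929.5 and 13676 CPM in 005 and 650.4, 3989.6 and 1691 CPM in GL261, had 1 called gene of 8. Aqp1, the water channel of choroid plexus and of some vessels, was at 12.6, 10.7 and 2.92 CPM in 005 and 0.207, 0.485 and 0.97 CPM in GL261 (log2 fold change -3.85 ± 0.90 (SE), adjusted p = 0.0328, edgeR), lowest within 005 in replicate 3, the tumor with the highest choroid plexus sum. Its call held without replicate 3 (-4.27, adjusted p = 0.00765) and was lost without any other library (adjusted p up to 0.161).

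The called genes were then set beside the other groups of the series. Of the 303 genes higher in GL261, 171 had all 3 GL261 tumors above all 9 samples of CT2A, Mut3 and naïve brain, whereas 17 of the 155 genes higher in 005 had all 3 005 tumors above those 9. Without 005 replicate 3 the shares were 35.2% of 517 genes and 41.7% of 556 (005 replicates 1 and 2 alone), and among the 155 genes, 68 had 005 replicates 1 and 2 above all 9. The count for 005 thus changed with that library, and fewer tumors exceed the 9 samples more readily. The genes counted had already been called as higher in the line, and the share over all tested genes was not computed. No excess can therefore be read from these counts. Coro2a was shared with CT2A, at 829 ± 192 CPM (mean ± SD, n = 3), as were Ifit3 (324 ± 82.9) and Bst2 (110.1 ± 15.8). H19 in Mut3 tumors was at 79.7 ± 54.6 CPM and Gpnmb at 259 ± 56 CPM. Of the genes higher in 005, Sema3a was at 208 ± 70.8 CPM in CT2A and Halr1 at 146 ± 153 CPM in Mut3, with a spread as large as the mean in the latter. By the same rule and fit, the other pairs of tumor lines differed in more genes than GL261 and 005 did, from 719 for CT2A and 005 to 3463 for 005 and Mut3, with 1358 for CT2A and GL261. Without 005 replicate 3 that order turned, with 790 genes for CT2A and 005 against 1073 for GL261 and 005, while the other pairs had 2216 to 4125. In fits of the compared samples only, the order of the lowest counts also turned, with 108 genes for CT2A and 005 and 148 for GL261 and 005.

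**Figure D5:**
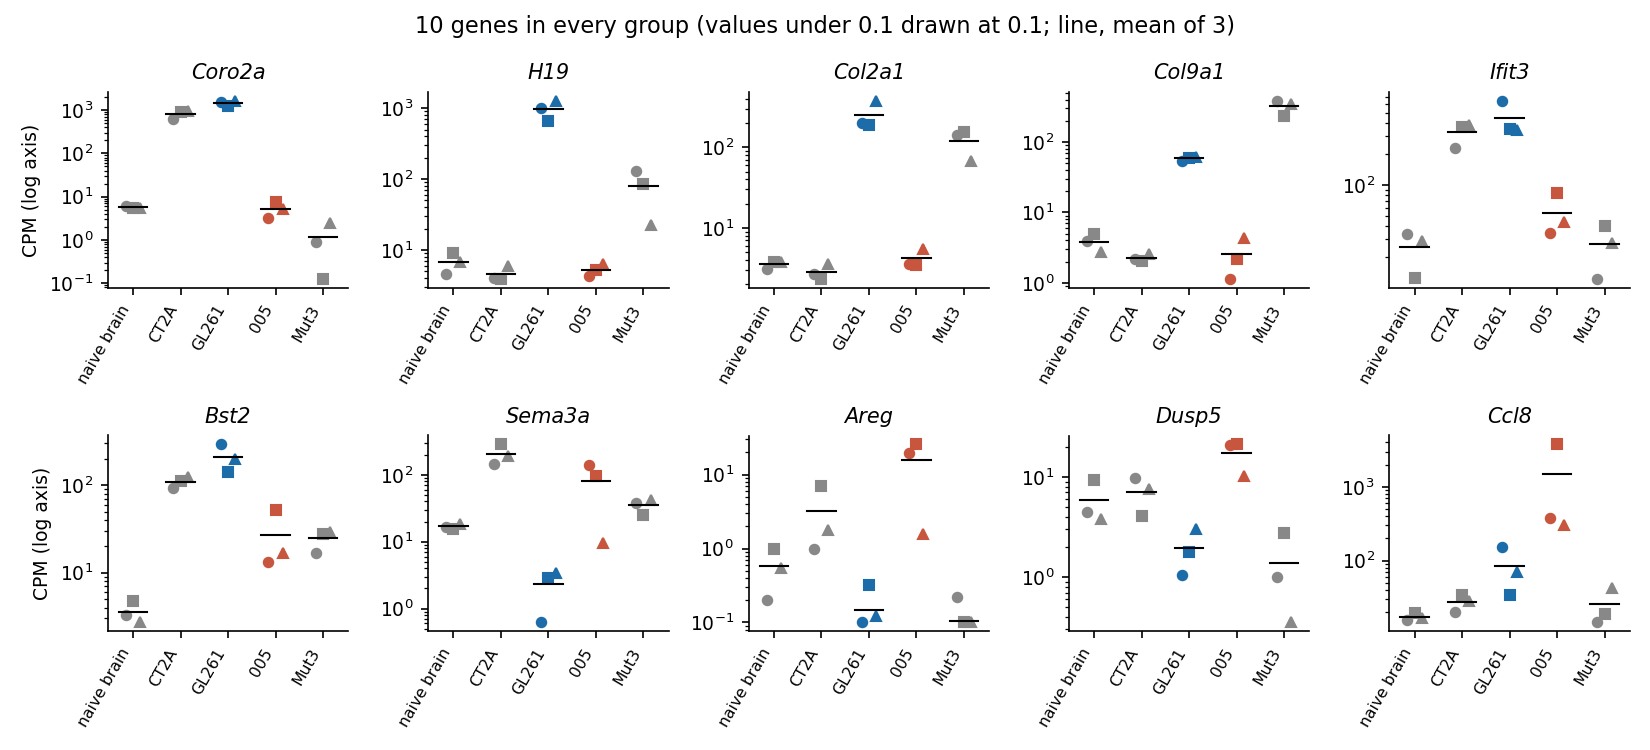
CPM on a log axis of 10 genes in naïve brain and the 4 tumor lines, 1 point per sample, with a line at the mean of 3 samples. GL261 and 005 points are separate in all 10 genes, and for Coro2a and Ifit3 the CT2A samples lie nearer to GL261 than to 005.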

How the data were processed

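Total RNA of whole tissue from 15 samples was sequenced, and groups and replicate numbers were taken from the labels. The authors aligned reads with STAR to a GENCODE mouse genome, and the submitters' processing notes also name Salmon, DESeq2 1.18.1 and mm10. The annotation release and the use of strand are not given in the sources used here. The authors deposited estimated counts (expected counts) per gene and a table of TPM (scaled by gene length and library) for the same samples. Expected counts were rounded to whole numbers before testing.

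Genes passing filterByExpr were fitted over all 5 groups with edgeR 4.0.16 (R 4.3.3, TMM factors, quasi-likelihood test, Benjamini-Hochberg adjustment over all tested genes). The called threshold was an adjusted p under 0.05 with a log2 fold change of 1 or more in either direction. Alternatives used DESeq2 1.42.0, limma 3.58.1 on log2(TPM + 1) of the deposited TPM, other filters and scaling, fits of the compared samples only, a replicate block, and leaving out each library. The edgeR fit was checked on simulated counts, in which replicates of a group shared a common mean. The DESeq2 and limma fits were not checked in this way.

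The comparison, its members and the 54 gene lists were chosen with earlier results of these data known, and no list is independent evidence. Named genes were, for each direction, the 12 called genes with the largest fold change among those with groups apart, a mean of at least 5 CPM in the higher group and more than 3 counts in a sample of the lower group; the 6 such genes of highest mean whose lower group had no sample above 3 counts; up to 4 called members of each list; and the genes altered in the lines with general cell markers. The rule also names the 2 most abundant members of lists with fewer than 2 calls. Most of these were not called and are covered by list counts. Some genes named by the rule, and some known mutations of the lines, are not reported here. Btc, Pf4, Mmp9, Phlda2, Sp140, Col9a2, Col9a3, Col11a2, Cnmd and the members named without a call were chosen after their values were seen. Symbols and positions came from GENCODE M21, which held 46269 of the 46679 gene IDs. Promoter sequences came from RefSeq (GRCm38.p6). Samples of a line came from separate mice but from 1 cell line, so p-values do not cover the spread between cell lines. In the main fit they rest on a spread between samples of a group that was estimated over all 5 groups, not over GL261 and 005 alone.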

Additional observations from a re-analysis of the deposited data

How the results depend on the processing

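Counts of called genes moved with the processing, while each called gene named in the text kept its direction in every alternative that tested it (43 of these 80 genes under the filter of 10 counts and 77 in the fit of the 6 samples). Against 458 genes (303 higher in GL261, 155 higher in 005), DESeq2 called 952 (511 and 441), at least 10 counts in each of the 6 samples 262 (170 and 92), and a fit of the 6 samples only 148 (141 and 7). With no filter on low counts, 251 were higher in 005. Leaving out 1 library gave 192 to 1073 genes, 152 to 517 higher in GL261 and 23 to 556 higher in 005, the highest values without 005 replicate 3. Same-numbered samples did not deviate together, with correlations of 0.10, -0.33 and -0.02, so the numbers do not pair tumors. A replicate block left 76 genes higher in 005. In the other tumor pairs, DESeq2 gave 2163 genes for CT2A and GL261 and 1777 for CT2A and 005, where the block gave 393. Fits of the compared samples gave 2353, 108 and 925 for CT2A and GL261, CT2A and 005, and 005 and Mut3. Limma on TPM gave 765, 477, 1132, 1163 and 1088 for CT2A and GL261, CT2A and 005, CT2A and Mut3, GL261 and Mut3, and 005 and Mut3. Some uncalled genes turned direction: over fits that left out 1 library, Ptprc ran from -1.46 to 0.23, Mki67 from -0.91 to 0.24, Cd68 from -0.63 to 0.26 and Aif1 from -0.37 to 0.66, the highest values without 005 replicate 2, and Aif1 was 0.091 under the replicate block. The cause was not tested. Of 80 called genes named in the text, 36 were called without any single library, and losses without 1 library ran from 1 (005 replicate 3) to 39 (GL261 replicate 1). The fit of the 6 samples lost 42 of 77, limma on TPM 25, the replicate block 21, library size in place of TMM 8, DESeq2 and no filter 2 each, and the filter of 10 counts 1 of 43. Library sizes of 5380395 to 13130158 counts limit genes near 3 counts.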
